A study of Mus musculus with 3 samples.

Results

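Transcript levels of the insulin-like growth factor (Igf) ligands, their receptors and their binding proteins were described in cultured myoblasts, the proliferating progeny of muscle stem cells. The members were chosen by name, as the ligands Igf1 and Igf2, the H19 transcript beside Igf2, the receptors Igf1r, Igf2r and Insr, the adaptor Irs1 and the binding proteins Igfbp3, Igfbp4 and Igfbp5. They are 10 of 35562 genes measured. RNA-seq libraries came from 3 lines, numbered 66, 67 and 72, which form 1 condition with n = 3 lines. All carry the Dmdmdx mutation edited with CRISPR/Cas9 so that the mutated exon of the dystrophin gene is skipped, and the Pax7-nGFP reporter, which labels muscle stem cells with nuclear green fluorescence. The lines were grown from reporter-positive cells sorted from the muscle of mouse-mouse chimeras that had been made with the edited induced pluripotent stem cells (iPSCs). They therefore share an origin in edited iPSCs, and each line is a single library with no replicate of its own. The labels give neither the host embryo, the age of the chimera nor the tamoxifen treatment for each line. Myoblasts of Pax7-nGFP mice and embryonic fibroblasts were not analysed here, so the values describe the edited lines alone and no comparison between conditions was made.

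Igf1 and Igf2 are secreted growth factors that signal mainly through the tyrosine kinase receptor Igf1r, and insulin signals through the related receptor Insr. Igf2r carries no kinase and takes Igf2 to lysosomes for degradation, while secreted binding proteins hold the ligands outside the cell and set how much reaches the receptors. Igf2 and H19 are neighbouring imprinted genes, read from the paternal and the maternal chromosome respectively, and Igf2 made by myoblasts is known to promote their differentiation. The parental origin of the RNA was not measured here.

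Igf2 was by far the most abundant transcript of the set, and more than 4 in 5 of its transcripts were assigned to the most downstream of its 4 RefSeq start sites. Igfbp5 and Igfbp3 followed, the receptors lay at moderate levels, and Igf1 and H19 were close to the lower end. Levels are given as TPM, estimated transcripts per 1000000 transcripts of a library, which corrects for transcript length, and coordinates are those of the GENCODE M21 annotation on GRCm38. Of the 10 members, 7 had a mean of at least 10 TPM, a level reached by 23.7% of all genes. The libraries held between 66972426 and 73274315 estimated counts. The 8 myoblast markers, among them Pax7 and Myod1, were all detected in every line, with a summed level of 2424 to 2570 TPM. Of the markers of other cell types, the fibroblast genes Lum and Dpt and the macrophage gene Adgre1 were at 0 in every line, and the endothelial and Schwann cell lists each summed to under 2 TPM and the immune list to 3.01 to 4.36 TPM. The exceptions were Col3a1, a fibrillar collagen gene, at 145, 205 and 270 TPM, and the pericyte gene Rgs5 at 356, 137 and 172 TPM in lines 66, 67 and 72. Another pericyte marker, Cspg4, was at 0.813, 5.24 and 1.33 TPM, and Ly6a of the fibroblast list was at 2.97 to 3.31 TPM.

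**Figure D1:**
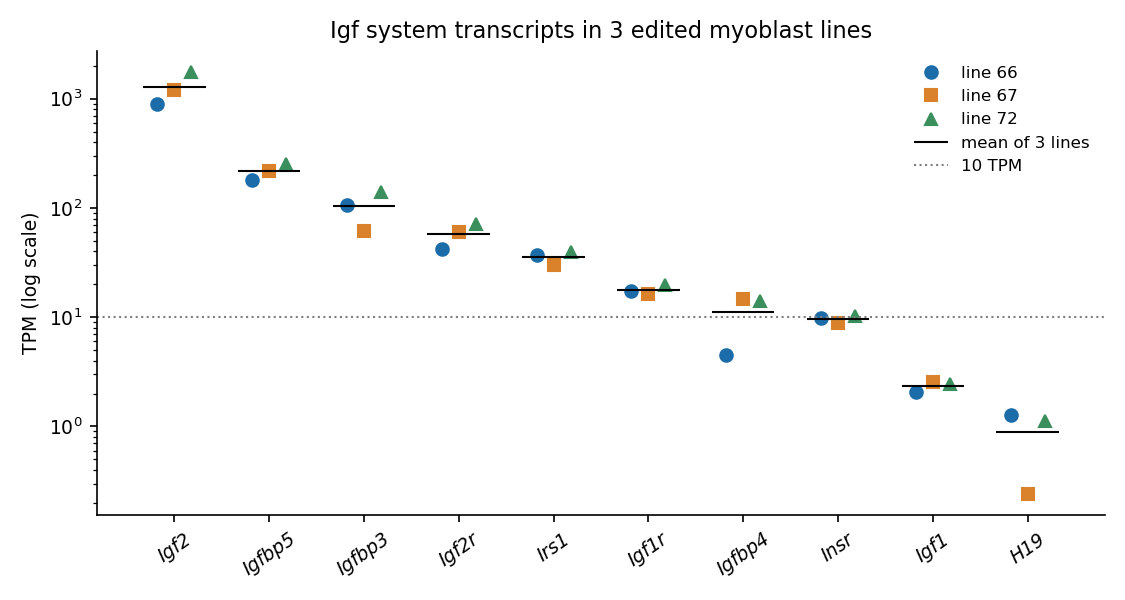
TPM of each of the 10 members on a log axis, with 1 point per line, a bar at the mean of the 3 lines and a dotted line at 10 TPM. Igf2 lies between 899 and 1760 TPM, above every other member in every line, and H19 and Igf1 lie at the lower end.

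Igf2 (chr7:142650766-142666816, minus strand), the fetal growth factor, was at 899, 1199 and 1760 TPM in lines 66, 67 and 72, highest in line 72. The mean was 1286 ± 437 TPM (SD, n = 3), and the highest line exceeded the lowest 1.96-fold. In mean TPM Igf2 ranked 125 among all genes, above 99.5% of the detected genes. Between 194655 and 362036 estimated counts stood behind each value, so counting error was small beside the spread between lines. The gene has 9 annotated transcripts, which begin at several promoters and largely share the coding exons. The sequences around the 4 start sites that RefSeq lists for Igf2 are shown here because the division of Igf2 among its starts is read against them.

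The windows reach from 250 bases before to 50 bases after each RefSeq start, are credited to RefSeq on GRCm38.p6 and are written 5′ to 3′ on the minus strand of chromosome 7, from the most upstream start to the most downstream. They lie at chr7:142666767-142667066 (the start of Igf2-203), chr7:142661222-142661521 (near the start of Igf2-204), chr7:142658755-142659054 (near the start of Igf2-205) and chr7:142657447-142657746 (the start of Igf2-201). Capitals mark 4 motifs on either strand, the TATA element TATAA, the related letters CATAAA, the CCAAT box and the Sp1 element written GGGCGG.
Igf2-203 window: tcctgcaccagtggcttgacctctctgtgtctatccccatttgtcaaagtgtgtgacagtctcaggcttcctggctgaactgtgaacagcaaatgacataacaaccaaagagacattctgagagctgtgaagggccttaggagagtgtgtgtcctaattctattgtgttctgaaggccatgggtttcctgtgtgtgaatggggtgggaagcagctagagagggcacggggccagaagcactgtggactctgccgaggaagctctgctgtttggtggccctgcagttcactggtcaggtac
Igf2-204 window: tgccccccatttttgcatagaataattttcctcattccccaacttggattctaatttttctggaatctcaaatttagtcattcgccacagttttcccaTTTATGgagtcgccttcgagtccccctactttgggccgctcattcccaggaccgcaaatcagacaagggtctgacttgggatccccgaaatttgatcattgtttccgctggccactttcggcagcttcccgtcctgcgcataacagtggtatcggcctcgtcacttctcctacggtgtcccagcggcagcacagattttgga
Igf2-205 window: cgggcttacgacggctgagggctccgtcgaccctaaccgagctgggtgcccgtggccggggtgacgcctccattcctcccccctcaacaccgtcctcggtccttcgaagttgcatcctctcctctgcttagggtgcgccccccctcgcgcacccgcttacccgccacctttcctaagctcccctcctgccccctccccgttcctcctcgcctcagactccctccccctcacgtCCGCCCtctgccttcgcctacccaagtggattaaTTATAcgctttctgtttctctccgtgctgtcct
Igf2-201 window: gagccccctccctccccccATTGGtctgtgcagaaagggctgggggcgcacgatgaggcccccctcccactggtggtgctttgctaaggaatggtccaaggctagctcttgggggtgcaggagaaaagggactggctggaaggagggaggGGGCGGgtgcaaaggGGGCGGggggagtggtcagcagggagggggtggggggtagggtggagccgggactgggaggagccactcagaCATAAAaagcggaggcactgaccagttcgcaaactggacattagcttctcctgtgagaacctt

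The Igf2-201 window holds CATAAA 13 bases before the start, GGGCGG at 100 and at 85 bases before it, and CCAAT 231 bases before it. The Igf2-205 window holds GGGCGG 17 bases before the start and TATAA 17 bases after it. The Igf2-204 window holds CATAAA only, 152 bases before the start, and the Igf2-203 window holds none of these letters. Among 32851 RefSeq windows of the same 300 bases, 24.9% hold TATAA, 11.9% CATAAA, 37.4% CCAAT and 35.7% GGGCGG. Such matches are frequent and describe the letters only. The number of CpG pairs was 2, 14, 24 and 7 in the order printed, against a median of 7 over all windows, and the Igf2-205 window was also the richest in G and C of the 4, at 64.7%.

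Igf2 RNA was divided unevenly among these starts. Transcripts were grouped where their annotated starts lie within 100 bases of each other, and each group was given as a share of Igf2 TPM. The group of Igf2-201 and Igf2-202 held 81.0%, 81.0% and 84.5% in lines 66, 67 and 72, which is 82.2% ± 1.99 (SD, n = 3). Nearly all of it was Igf2-201. Igf2-205, which starts farther upstream, held 17.1%, 17.6% and 13.8%, or 16.2% ± 2.06 (SD, n = 3). The group of Igf2-204 and Igf2-206 held 1.51% ± 0.231 (SD, n = 3), and most of that TPM was Igf2-206, a short transcript with a retained intron. By estimated counts the group held 0.588%, and most of that was Igf2-204. Igf2-203 and Igf2-207, the transcripts that begin farthest upstream, were at 0 in every line.

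**Figure D2:**
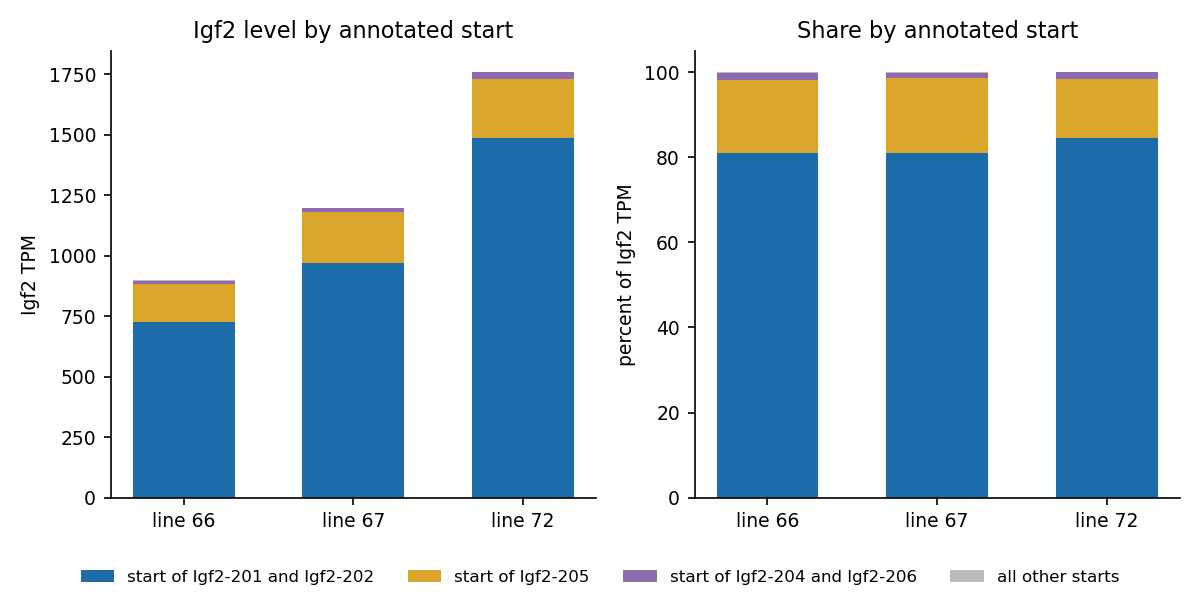
Stacked bars of Igf2 in each line by the annotated start of the transcripts, as TPM (left) and as percent of Igf2 TPM (right). In every line the group of Igf2-201 and Igf2-202 holds over 80% of the total and Igf2-205 most of the remainder.

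In TPM the Igf2-201 group was at 728 in line 66, 972 in line 67 and 1487 in line 72, and Igf2-205 was at 154, 211 and 243. Both were lowest in line 66 and highest in line 72, 2.04-fold apart for the Igf2-201 group and 1.58-fold for Igf2-205. The ratio of the Igf2-201 group to Igf2-205 was 4.74, 4.61 and 6.12, so line 72 had the larger share at the downstream start. These shares rest on how reads were split between transcripts that are largely alike. Of the 31-base words of Igf2-201, 3565 are also in Igf2-205 and 109 are not, whereas 1123 words of Igf2-205 are absent from Igf2-201. The annotated start of Igf2-205 also lies 685 bases upstream of the nearest RefSeq start, and with its first exon shortened to that start the Igf2-201 share was 80.6%, an alternative chosen after seeing the data. Gm49394, a read-through gene, holds 61.9% of the words of Igf2 but was at no more than 0.126 TPM.

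The level of Igf2 was lowest in line 66 and highest in line 72, and so were those of Igf2r and Igfbp5. These are 3 of the 7 members with at least 10 TPM, beside 29.4% of all genes at that level, so the share among the members was read as no result about them. The same order held for all 8 genes of the differentiating muscle list, which includes the transcription factor Myog, the fusion genes Mymk and Mymx and the embryonic myosin gene Myh3. Their summed level was 1368, 1849 and 2627 TPM in lines 66, 67 and 72, and Myog alone was at 168, 222 and 310 TPM. The summed level of the fibroblast list, nearly all Col3a1, was 149, 208 and 274 TPM. Only 1 of the 7 genes of that list, Col3a1 itself, was in this order. What part the genes of either list have in the level of Igf2 was not tested. In bulk RNA, fewer cells of a kind and less RNA per cell cannot be told apart.

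The ratio of Igf2 to Myog varied little, at 5.34, 5.40 and 5.67 in lines 66, 67 and 72, a range of 1.06-fold. Of 8426 other genes with at least 10 TPM, 7 had a narrower range in their ratio to Myog. The pair of Igf2 and Myog was chosen after its values were seen, so this rank is no test of its narrowness. The ratio of Igf2r to Myog spanned 1.19-fold and that of Igfbp5 to Myog 1.33-fold.

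**Figure D3:**
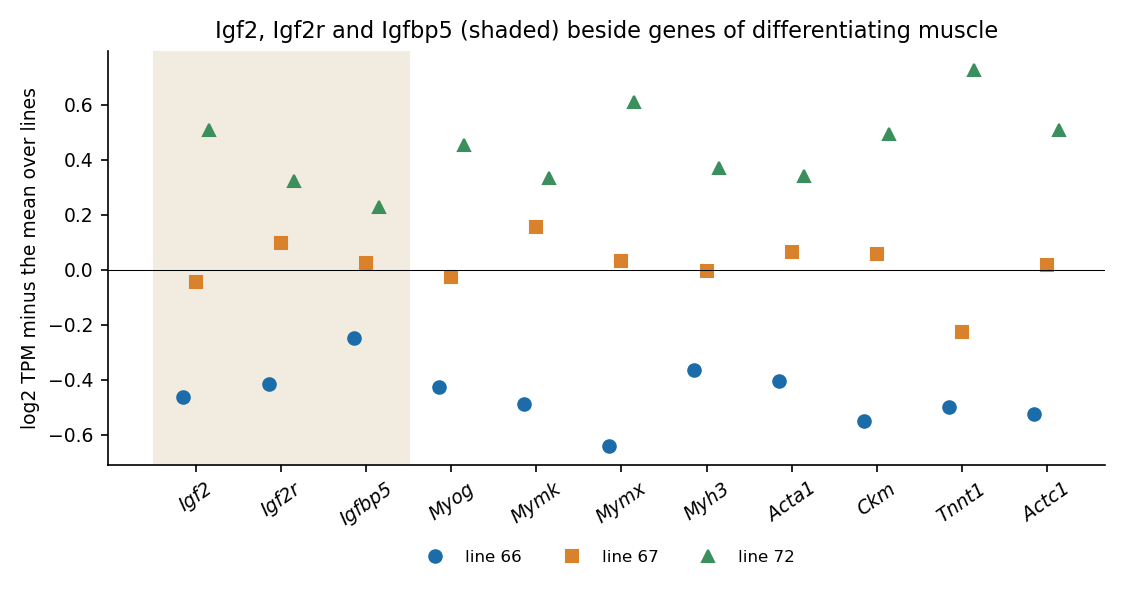
Log2 TPM of Igf2, Igf2r and Igfbp5 (shaded) and of the 8 genes of differentiating muscle, each minus its own mean over the 3 lines. In each of these genes line 66 is lowest and line 72 highest, and Igf2 and Myog take similar positions in every line.

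H19 (chr7:142575529-142578143, minus strand), a long non-coding RNA, was at 1.27, 0.242 and 1.13 TPM in lines 66, 67 and 72. Line 67 stood below the other lines, 5.27-fold under line 66, and the mean was 0.881 ± 0.558 TPM (SD, n = 3). The estimated counts were 109, 16 and 122, with exact Poisson 95% intervals of 89.5 to 131, 9.15 to 26.0 and 101 to 146. The interval of line 67 does not reach those of the other lines. These intervals cover counting error only and leave out the variation between cultures.

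H19 lies 72623 bases from Igf2 on the same strand, yet the levels of both genes were far apart in every line. The ratio of Igf2 to H19 in TPM was 706, 4964 and 1559, and the mean log2 ratio was 10.78 ± 1.42 (SD, n = 3). Igf2 was the higher in 3 of 3 lines, with p = 0.25 in an exact two-sided sign-flip test, the smallest p that 3 lines allow. Of the other genes in this stretch of chromosome 7, the mitochondrial ribosomal gene Mrpl23 was at 102, 98.6 and 87.4 TPM. The fast muscle troponin gene Tnnt3 was at 208, 402 and 389 TPM, lowest in line 66, and Lsp1 was at 124, 226 and 185 TPM. Nctc1, a non-coding transcript between H19 and Mrpl23, was under 1 TPM, and Ins2 and Th, the next genes beyond Igf2, were close to 0. Ctcf, whose protein binds the control region between H19 and Igf2 and which lies on another chromosome, was at 53.1, 59.0 and 58.5 TPM. Igf2os, transcribed against Igf2, was at 2.17, 2.36 and 3.01 TPM, and its exons overlap 98 exon bases of Igf2. The strand setting of the read assignment is not given in the sources used here, so reads in that overlap cannot be placed.

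Igf1 (chr10:87858265-87937042, plus strand), the main growth factor of postnatal muscle, was at 2.05, 2.57 and 2.46 TPM in lines 66, 67 and 72. The lines lay close together, with a mean of 2.36 ± 0.275 TPM (SD, n = 3) and a range of 1.26-fold. The estimated counts were 272, 304 and 285 after rounding, so the 95% counting error alone was 11.2% to 11.9% of each value. Igf1-202, the longest transcript, held 86.2% of these counts on average but 36.5% to 40.9% of Igf1 TPM.

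Igf2 exceeded Igf1 438-fold in line 66, 466-fold in line 67 and 717-fold in line 72. The mean log2 ratio of TPM was 9.04 ± 0.39 (SD, n = 3), with Igf2 higher in 3 of 3 lines and p = 0.25 in the exact two-sided sign-flip test. The insulin genes gave no signal beside these. Ins1, named after its values were seen, was at 0 in every line, and Ins2 had a level above 0 in line 72 only, at 0.0714 TPM.

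The receptor genes Igf1r, Insr and Igf2r were expressed in every line, at levels far under that of Igf2. Igf1r (chr7:67952827-68233668, plus strand), which carries the growth signal of both ligands, was at 17.5, 16.3 and 19.8 TPM, or 17.9 ± 1.75 (SD, n = 3). Insr (chr8:3122061-3279617, minus strand), the insulin receptor, was at 9.86, 8.84 and 10.2 TPM, or 9.63 ± 0.701 (SD, n = 3). Both varied little, by 1.21-fold and 1.15-fold. In these gene sums line 67 was lowest and line 72 highest, but the order depended on short transcripts. Igf1r-201, the longest transcript, held 98.5% of Igf1r counts on average. It was lowest in line 66 (14.8 TPM) and highest in line 72 (15.7 TPM). Insr-201, with 98.2% of Insr counts on average, was lowest in line 67 (7.46 TPM) and highest in line 66 (8.42 TPM). The ratio of Igf1r to Insr was 1.77, 1.85 and 1.94, so Igf1r was the higher in every line. Insrr, the third gene of this receptor family, was under 0.01 TPM in every line.

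Igf2r (chr17:12682406-12769664, minus strand), the clearance receptor of Igf2, was the most abundant of the receptors at 42.5, 60.5 and 70.8 TPM, lowest in line 66. Its mean was 57.9 ± 14.3 TPM (SD, n = 3) and its range 1.67-fold, wider than those of Igf1r and Insr. The ratio of Igf2r to Igf1r was 2.43, 3.71 and 3.58, lowest in line 66. Irs1 (chr1:82233101-82291416, minus strand), the adaptor that links the activated receptors to phosphoinositide 3-kinase (PI3K), was at 37.2, 30.2 and 39.6 TPM. Its mean was 35.7 ± 4.88 TPM (SD, n = 3), with line 67 lowest. Part of the Irs1 exons, 30.9% of their bases, overlap Gm9747 on the other strand, but that gene was at 0.488 to 0.720 TPM. Irs1 exceeded its relative Irs2, which was chosen after its values were seen, by 14.1-fold, 15.9-fold and 13.5-fold in lines 66, 67 and 72.

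Among members averaging 10 TPM or more, the binding proteins Igfbp4 and Igfbp3 had the widest ranges between lines. Igfbp5 (chr1:72857932-72874884, minus strand), a binding protein that rises in differentiating myoblasts, was at 180, 217 and 250 TPM in lines 66, 67 and 72. Its mean was 216 ± 35.1 TPM (SD, n = 3), and its lines were 1.39-fold apart. Igfbp3 (chr11:7206086-7213923, minus strand), the main carrier of Igf in blood, was at 107, 61.9 and 141 TPM, with a mean of 103 ± 39.7 TPM (SD, n = 3). Line 67 was the lowest and line 72 the highest, 2.28-fold apart. The counts of 11699, 6206 and 14400 behind these values leave each line outside the counting error of the others.

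Igfbp4 (chr11:99041244-99054392, plus strand), an inhibitor of Igf action that the protease Pappa can cut, was at 4.52, 14.7 and 14.2 TPM in lines 66, 67 and 72. Line 66 stood apart below the other lines, which lay close together, and the range was 3.24-fold. The mean was 11.1 ± 5.72 TPM (SD, n = 3). The estimated counts were 490, 1204 and 1456 after rounding. The full-length coding transcript Igfbp4-201 held 39.6%, 28.7% and 38.2% of Igfbp4 TPM but on average 78.3% of its estimated counts, which are not divided by length, and much of the remaining TPM was assigned to 2 short transcripts without a coding sequence. Igfbp4-201 alone was at 1.79, 4.21 and 5.42 TPM, again lowest in line 66.

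Igfbp3 and Igfbp4 were thus the 2 of 7 members with at least 10 TPM that were over 2-fold apart between lines, beside 2.47% of all genes at that level. Igf2, at 1.96-fold, lay just inside this limit. Igfbp4 was counted only because lines 67 and 72 together lift its mean past 10 TPM. Its mean was 9.35 TPM without line 67 and 9.58 TPM without line 72. The median range was 1.67-fold over these 7 members and 1.18-fold over all genes with at least 10 TPM. Of the 3 members under that level, H19 was the only one over 2-fold apart. The share of all genes under that level was not computed, so this count is no result about the members. Each line was also set against the mean of the other lines on the log2(TPM + 1) scale. Igfbp4 in line 66 was then the only value past 2-fold among the 7 members with at least 10 TPM. Igfbp3 in line 67 lay just inside that limit. A fall past 2-fold in line 66 was called for 0.439% of the 8428 genes with at least 10 TPM. That share covers 1 line and 1 direction, whereas the members were looked at in every line and in both directions. Since each line is 1 library, these differences have no replicate check.

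**Figure D4:**
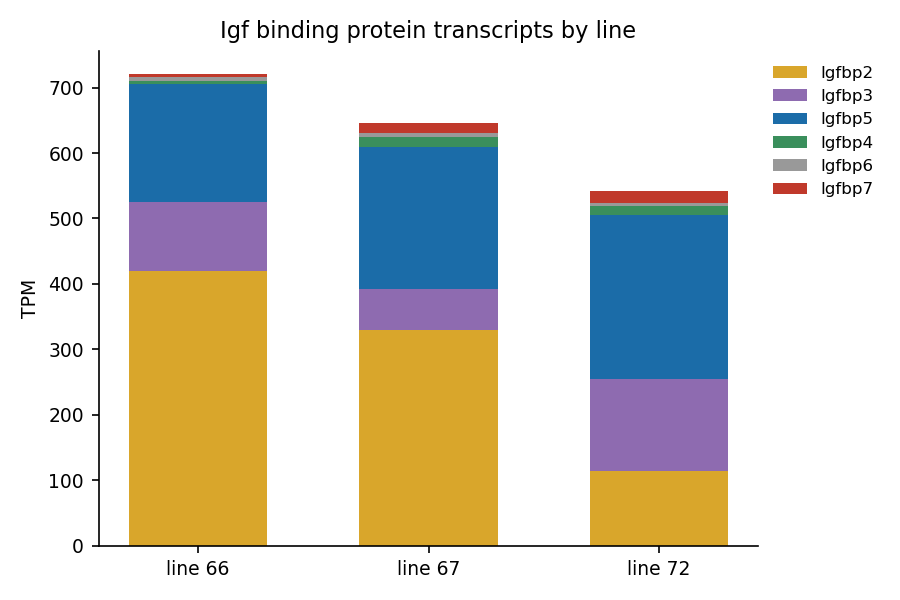
Stacked bars of the TPM of the Igfbp genes in each line. Igfbp2 is highest in line 66 (419 TPM) and lowest in line 72 (113 TPM), whereas Igfbp5 is lowest in line 66 (180 TPM) and highest in line 72 (250 TPM).

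Set among the whole family of Igfbp1 to Igfbp7, the members did not make up the larger part in every line. Igfbp2, a binding protein outside the 10 members that is common in fetal tissue, was at 419, 330 and 113 TPM, highest in line 66 and lowest in line 72. It held 58.2%, 51.1% and 20.9% of the family's TPM. Igfbp5 held 25.0%, 33.6% and 46.1%, or 34.9% ± 10.6 (SD, n = 3), Igfbp3 held 14.8%, 9.58% and 26.0%, and Igfbp4 no more than 2.61%. In TPM the leading binding protein was Igfbp2 in lines 66 and 67 and Igfbp5 in line 72, and their ratio was 2.33, 1.52 and 0.454. By estimated counts, without correction for length, Igfbp5 led in every line, with 61.5%, 71.5% and 76.3% of the family. Igfbp2 and Igfbp5 are neighbours on chromosome 1, on opposite strands and 5458 bases apart.

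Igfbp7, which binds insulin-like growth factors weakly, was at 4.65, 15.5 and 18.4 TPM, and like Igfbp4 it was lowest in line 66. Igfbp6, which prefers Igf2, was at 5.38, 6.77 and 5.32 TPM. Igfbp1, which lies 3540 bases from Igfbp3, was at 0 in every line, and Igfals, the blood carrier subunit that joins Igfbp3, was at or near 0. The family summed to 720, 646 and 543 TPM in lines 66, 67 and 72, but to 1228, 1294 and 1362 as counts per 1000000 (CPM), so the order of the lines turned without the correction for length. Igf2 stood at 1.25, 1.86 and 3.24 times the family's sum in TPM and at 2.17, 2.81 and 3.80 times in CPM, lowest in line 66 and highest in line 72 on both scales.

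In order of mean TPM the members ran Igf2, Igfbp5, Igfbp3, Igf2r, Irs1, Igf1r, Igfbp4, Insr, Igf1 and H19. Of the 9 pairs of neighbours in this order, 7 had ranges over the lines that did not overlap. The ranges of Igfbp3 and Igf2r overlapped, although Igfbp3 was higher in 3 of 3 lines, and those of Igfbp4 and Insr overlapped with Igfbp4 higher in 2 of 3.

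Lines can differ over whole chromosomes, so each member was set beside its own. Ratios of a line to the average of the others were taken on the log2(TPM + 1) scale, and over genes with at least 10 TPM their median was 0.32 for chromosome 11 and 0.28 for chromosome 10 in line 66. Igfbp4, on chromosome 11, had a log2 ratio of -1.43 in line 66, in the direction opposite to its chromosome. Igfbp3, on the same chromosome, had log2 ratios of 0.13, -0.98 and 0.68 in lines 66, 67 and 72, where chromosome 11 had medians of 0.32, -0.19 and -0.14. Igf1, on chromosome 10, was at -0.15 in line 66, below its chromosome. Igf2 had log2 ratios of -0.66, -0.13 and 0.69, while chromosome 7 stayed within 0.06 of 0 in each line. With the chromosome medians taken out, the same 2 members were over 2-fold apart.

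**Figure D5:**
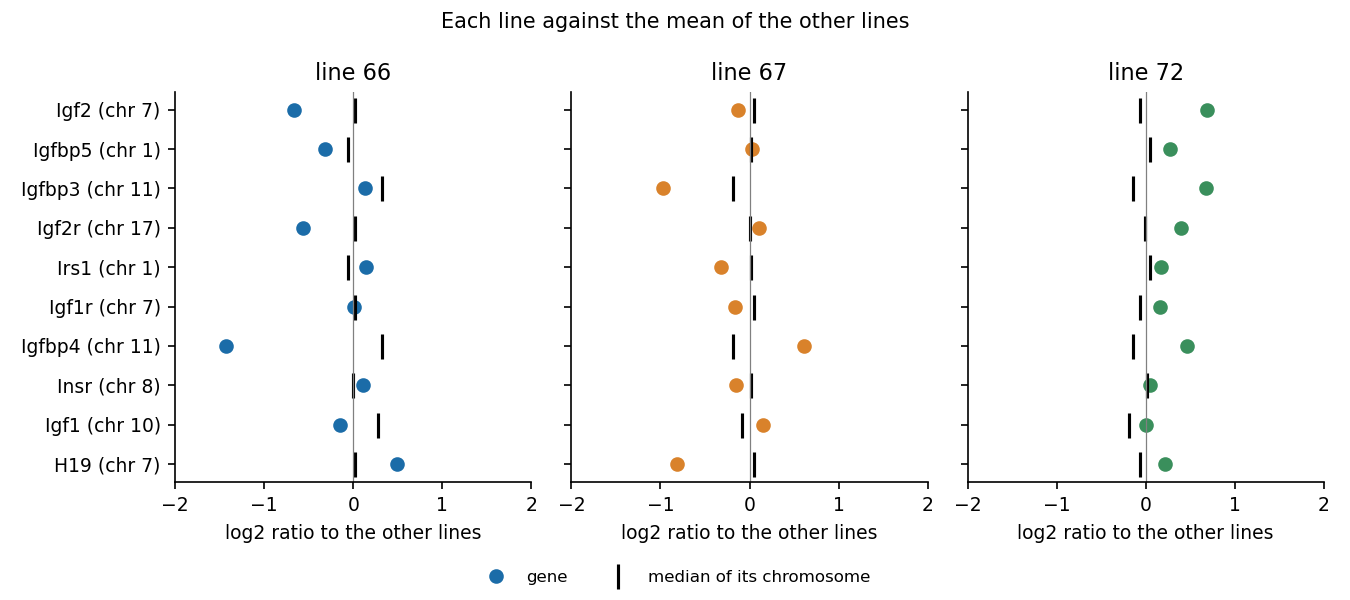
Log2 ratio of each member in each line to the average of the others, after the median of all genes was taken out (points), with the median of its chromosome (ticks). Igfbp4 in line 66 lies at -1.43 while chromosome 11 lies at 0.32.

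A wider list of 62 genes was then counted, with the members included. It holds the genes of the Igf pathway, H19 and Igf2os, and 6 genes that lie near Igf2 or whose protein binds there (Lsp1, Mrpl23, Tnnt3, Nctc1, Th and Ctcf) and are not part of the pathway. Of the 62, 37 had a mean of at least 10 TPM, 13 lay from 1 to 10 TPM and 12 under 1 TPM. The 4 of these 37 over 2-fold apart between lines, beside 2.47% of all genes at that level, were Igfbp2, Igfbp3, Igfbp4 and Igfbp7, all of them binding proteins. None of the 6 adaptors, 9 PI3K and Akt genes and 6 mTOR genes at that level was over 2-fold apart, which at so few genes is close to that background. This division depends on the limit of 10 TPM. Just under it, the adaptor Grb10 (mean 9.69 TPM) was 10.8-fold apart and the Pappa inhibitor Stc1 (mean 9.84 TPM) 3.39-fold. Insr, Rictor and Tsc1, also just under it, were at most 1.15-fold apart. Akt1, the kinase downstream of PI3K, was at 253, 285 and 301 TPM in lines 66, 67 and 72. The adaptor Grb2, which leads to the Ras pathway, was at 144, 116 and 118 TPM, and Shc1 was at 79.7, 63.1 and 72.8 TPM. The median range over the 37 genes was 1.25-fold, beside 1.18-fold for all genes at that level. Without the 6 neighbouring or binding genes, 33 of 56 reached 10 TPM, with the same 4 over 2-fold apart and a median range of 1.25-fold. Of the proteins that bind Igf2 mRNA, Igf2bp2 was at 89.1, 95.1 and 90.8 TPM and Igf2bp3 at 26.6, 16.8 and 24.2 TPM.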

How the data were processed

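RNA-seq libraries (TruSeq stranded mRNA, poly-A selected) of 3 edited Dmdmdx; Pax7-nGFP myoblast lines were used, with the line as the replicate. The spread and p-values are therefore those between these lines, and separate chimeras are not given in the labels. For each transcript the authors deposited an estimated count, not normalized, and its TPM, for which that count is divided by the effective length and the results are scaled to sum to 1000000. The submitters' processing notes list bcl2fastq 2.20, fastp 0.20, kallisto 0.46.1 and GRCm39. The annotation release and strand setting are not given in the sources used here.

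Transcripts were matched by identifier to GENCODE M21, which is on GRCm38, so coordinates here are of that build. Of 121798 transcripts, 1112 had no match (0.493% to 0.535% of counts) and were left out. All 49 member transcripts matched with the same length. TPM and estimated counts were summed per gene. Depth, as the sum of estimated counts, was 73274315 (line 66), 66972426 (line 67) and 70272367 (line 72), and a floor of 3 counts is 0.0409, 0.0448 and 0.0427 CPM. Folds between lines and ratios between genes used TPM, and ratios of a line to the others used log2(TPM + 1), given relative to the median of all genes. Promoter windows came from RefSeq, which held them for 8 of 10 members. Shared sequence was measured in words of 31 bases.

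The members and all gene lists were chosen with earlier results of these data known. Named were all members, list genes averaging 10 TPM or more, receptors, binding proteins and genes of the Igf2-H19 region at any level, and the 5 genes most like Igfbp4, the member with the widest range among those averaging 10 TPM or more. Cell type markers and genes that overlap a member or share its sequence were named in addition, and others where stated as chosen after their values were seen. The alternatives were CPM, TMM factors from edgeR and size factors from DESeq2 (both on rounded estimated counts), other pseudocounts, filters, fold limits and start groups, and leaving out each line. The scripts were tested on simulated counts. Scaling factors were computed with edgeR 4.0.16 and with DESeq2 1.42.0 in R 4.3.3, tables with pandas 2.3.3 and numpy 2.4.6 in Python 3.11.15, intervals with scipy 1.17.1, and plots with matplotlib 3.10.9.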

Additional observations from a re-analysis of the deposited data

How the results depend on the processing

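The number of members over 2-fold apart between lines was 2 (Igfbp3 and Igfbp4) with CPM, TMM scaling, DESeq2's size factors, a filter at 1 TPM and the chromosome medians taken out, and 3 with no filter, which adds H19. It was 4 at a limit of 1.5-fold, where Igf2 and Igf2r join, and 0 at 4-fold. The shares of all genes at these other limits and filters were not computed, so these counts cannot be read against a background. Leaving out each line gave 0 to 1 members over 2-fold apart. Igfbp3 alone remained without line 66, and none without line 67 or without line 72. Igfbp4 stayed 3.14-fold apart without line 67 and 3.24-fold without line 72, but its mean then fell under 10 TPM, to 9.35 and 9.58. The share of Igf2 at the start of Igf2-201 was 77.7% by estimated counts, and that of Igfbp5 among the binding proteins was 69.7% by CPM, with Igfbp5 ahead of Igfbp2 in every line. The group of Igf2-204 and Igf2-206 held 0.588% by estimated counts. The log2 ratio of the summed binding proteins in line 72 to line 66 was -0.41 in TPM and turned to 0.15 by CPM, an alternative chosen after seeing the data. None of these values by counts or CPM divides by transcript length. The mean log2 ratio of Igf2 to Igf1 was 8.82 to 9.17 and that of Igf2 to H19 10.04 to 11.44 without each line, and 9.81 and 12.08 by CPM. Members at a mean of 10 or more numbered 8 by CPM, and genes of the wider list 43. Levels of single members moved by over 1 SD in 24 cases, 7 each with CPM, TMM and DESeq2 and 3 with a pseudocount of 0.1. Leaving out 1 of 3 lines cannot move a mean by 1 SD, so it says nothing of these levels. No paired analysis was possible because there is only 1 group of lines. Depth limits H19, with 16 counts in line 67.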

Other observations

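Some genes of the wider list with a mean under 10 TPM differed more between lines than most members, and these were chosen after their values were seen. Grb10, an imprinted adaptor that dampens signalling by Igf1r and Insr, was at 1.75, 8.42 and 18.9 TPM in lines 66, 67 and 72, lowest in line 66. Igf2bp1, which binds Igf2 mRNA, was at 3.53, 0.202 and 1.55 TPM, lowest in line 67, where H19 was also lowest. Stc1, an inhibitor of the protease Pappa, was at 5.23, 6.54 and 17.7 TPM, highest in line 72, and Pappa itself was at 0.0387, 0.300 and 0.183 TPM. Each line is a single library, so none of these differences has a replicate check.

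The 5 genes whose levels over the 3 lines were most like those of Igfbp4, by the distance between centred log2(TPM + 1) values among 8428 genes, were Aqp5, Col12a1, Igfbp7, Hspb8 and Tnnc2, at distances of 0.197 to 0.350. All were lowest in line 66, which follows from choosing them by their likeness to Igfbp4. Col12a1, a collagen gene, was at 4.77, 18.2 and 14.3 TPM, and Tnnc2, the fast muscle troponin C gene, was at 54.7, 111 and 126 TPM. With 3 points per gene, many genes can take a like pattern.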
